A study of Mus musculus with 6 samples.

Results

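The 10 genes described here code for ligands, receptors and one inhibitor of the IL-6 family (Il6, Il6ra, Il6st, Il11, Lif, Osmr and Socs3) and for the IL-1 and IL-33 signals (Il1b, Il33 and Il1rl1). They were chosen by symbol, each symbol matched 1 of the 53819 rows of the gene table, and all 10 were among the 17496 genes with enough counts to test. Gene counts came from bulk RNA-seq of flexor digitorum longus (FDL) tendons of mice, with 1 tendon in each library. The mice were aged 10 to 12 weeks at transection and repair surgery, and the tendons were harvested at D28 after it. The 3 DTRScxLin libraries came from Scx-Cre+; DTR F/+ mice and the 3 WT libraries from Scx-Cre-; DTR F/+ littermates, so both groups carried the diphtheria toxin receptor (DTR) allele. Both groups were given 5 daily injections of diphtheria toxin (DT), from D14 to D18, and only mice with the Cre can express the receptor. The Scx-Cre is not inducible, so every cell with a history of Scleraxis (Scx) expression is open to depletion, and cells that turn on Scx after D18 are not. The sample titles count D28 from the depletion, whereas the protocol counts it from surgery. Xist, the X-inactivation transcript, had 49303 to 54082 counts in WT replicate 2 and DTRScxLin replicates 2 and 3 and at most 4 in the others, so both groups held tendons of both sexes.

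Cytokines of the IL-6 family act through receptor complexes that share gp130, the product of Il6st, and pass the signal to JAK kinases and STAT3. Il6ra gives IL-6 its specific receptor, Osmr pairs with gp130 for oncostatin M, and Socs3, itself a STAT3 target, blocks further signalling at gp130. IL-1 and IL-33 bind receptors of the IL-1 family, Il1rl1 (ST2) in the case of IL-33, and signal through MyD88 to NF-kB; in healing tendon, IL-1 and IL-6 are known as early inflammatory signals, and IL-33 as an alarm signal of stressed fibroblasts. Il1rl1 also gives a soluble decoy form, which gene counts do not separate from the membrane receptor.

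The promoters of the 3 IL-6 family ligands and of Socs3 are printed because 1 of these genes, Lif, gave the clearest difference between groups and because only these 4 members held a searched motif in the 250 bases before the RefSeq start. The windows are from RefSeq on GRCm38.p6, read 5′ to 3′ on the gene's own strand, and all 10 members were matched, with 13 windows in all. Capitals mark the AP-1 motif TGACTCA, the STAT motif TTCNNNGAA and an NF-kB motif (matched here as GGGATTTTCC, with any base allowed at the fifth letter), searched on both strands, and none of the matches overlap.
Lif, chr11:4257318-4257567, plus strand: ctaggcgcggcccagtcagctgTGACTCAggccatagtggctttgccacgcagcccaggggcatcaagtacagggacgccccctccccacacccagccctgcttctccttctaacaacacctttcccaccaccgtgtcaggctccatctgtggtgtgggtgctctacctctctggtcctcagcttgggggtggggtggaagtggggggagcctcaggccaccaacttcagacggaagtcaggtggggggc
Il6, chr5:30012864-30013113, plus strand: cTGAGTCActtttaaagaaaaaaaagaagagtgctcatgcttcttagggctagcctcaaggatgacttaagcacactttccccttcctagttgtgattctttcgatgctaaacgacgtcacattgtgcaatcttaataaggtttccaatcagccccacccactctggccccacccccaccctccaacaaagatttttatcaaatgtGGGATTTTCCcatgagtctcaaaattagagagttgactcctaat
Il11, chr7:4778142-4778391, minus strand: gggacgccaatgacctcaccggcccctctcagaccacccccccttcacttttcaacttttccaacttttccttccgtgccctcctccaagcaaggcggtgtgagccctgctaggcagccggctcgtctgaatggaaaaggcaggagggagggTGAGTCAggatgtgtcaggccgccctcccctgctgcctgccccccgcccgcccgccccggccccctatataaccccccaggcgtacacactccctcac
Socs3, chr11:117969367-117969616, minus strand: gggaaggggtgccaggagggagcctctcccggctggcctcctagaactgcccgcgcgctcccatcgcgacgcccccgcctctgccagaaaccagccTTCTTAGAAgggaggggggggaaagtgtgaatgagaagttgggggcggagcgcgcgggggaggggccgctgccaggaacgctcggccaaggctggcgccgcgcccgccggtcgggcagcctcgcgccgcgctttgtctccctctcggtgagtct
The AP-1 motif was in the windows of all 3 ligands, beginning 228 bases before the start in Lif, 249 in Il6 and 98 in Il11, where a second Il11 window held none. It was in 4.46% of the 32851 promoter windows of this length. The Il6 window also held the NF-kB motif, 44 bases before the start, which 0.356% of windows held, and the Socs3 window held a STAT motif, 154 bases before the start, which 7.02% of windows held. The windows of Il6ra, Il6st, Osmr, Il1b, Il33 and Il1rl1 held none of these letters. A match is a description of the sequence, and factor binding was not measured.

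Each library held 42744138 to 48854310 gene counts, of which the 10 members together took 0.0879% to 0.109%. Tendon fibroblast markers made up 3.72%, 4.09% and 4.38% of counts in WT and 5.46%, 4.2% and 5.21% in DTRScxLin (replicates 1 to 3). Of these 9 markers, 8 were fitted higher and 1 lower in DTRScxLin, with a median log2 fold change of 0.32. Skeletal muscle markers made up 2.79%, 2.49% and 2.02% of counts in WT and 0.342%, 2.45% and 0.647% in DTRScxLin. All 20 of them were fitted lower in DTRScxLin, with a median log2 fold change of -1.19. Keratinocyte markers ranged from 0.000887% in DTRScxLin replicate 1 to 0.279% in WT replicate 1. Neutrophil markers ranged from 0.00199% to 0.0245%, with the highest share in DTRScxLin replicate 1. In bulk tissue, fewer cells of a type and less RNA per cell cannot be told apart, and this touches each result that follows. The labels give 1 tendon per library but not whether tendons came from separate litters.

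As RPKM, which divides counts by library size and by exon length, a scale that allows levels to be compared between genes, the shared receptor Il6st was the most abundant member, at a mean of 46.0 over the 6 libraries (42.3 to 48.2). It was above Il33, the next, in all 6 libraries. Il33 (31.6) and Socs3 (30.1) were not separated, since Il33 was the higher in 3 of 6 libraries. Il1b (12.2), Il1rl1 (10.8) and Osmr (9.15) formed the middle of the order with overlapping ranges, and Il1b spanned 2.21 to 44.4. Il11 (4.81) and Il6ra (3.63) were also not separated. The ligands Lif (1.73) and Il6 (0.717) were the least abundant members, although Lif was above Il6 in 6 of 6 libraries. The coefficient of variation of the normalized counts over all 6 libraries ran from 4.88% for Il6st, 13.6% for Osmr and 16.5% for Il6ra to 53.8% for Il11, 60.8% for Il6 and 132% for Il1b, so the receptors varied less than the ligands, with Il1rl1 (42.5%) as the exception.

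**Figure D1:**
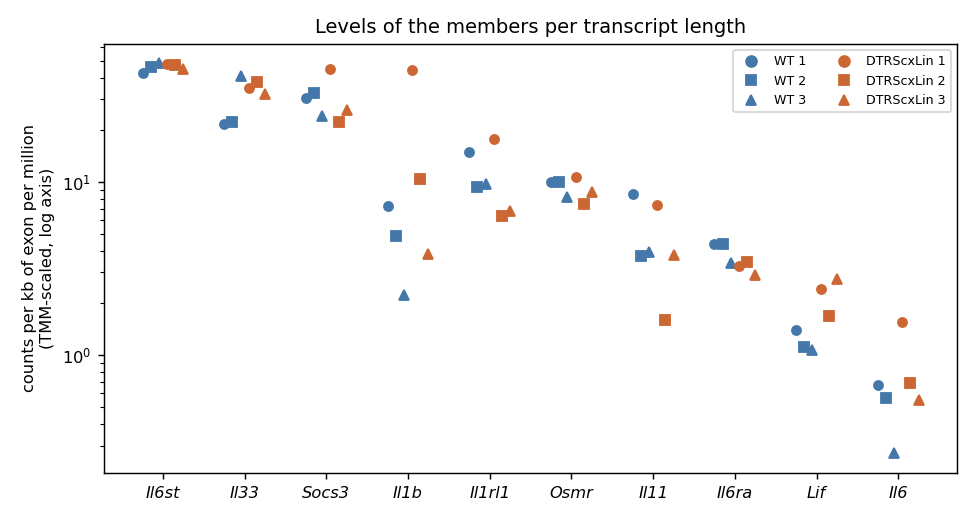
Level of each member in each library as RPKM on a log axis, with WT and DTRScxLin libraries as separate points. Il6st lies highest, at 42.3 to 48.2, Lif and Il6 lie lowest, and Il1b is spread over 2.21 to 44.4.

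No member differed between DTRScxLin and WT tendons by edgeR's quasi-likelihood test with Benjamini-Hochberg adjustment over all tested genes, in which no gene was called (0%), and member adjusted p-values ran from 0.293 to 0.941. At an unadjusted p under 0.05, 2 of 10 members passed, Lif higher and Il6ra lower, where 11% of all tested genes (1918) did. DESeq2's Wald test, which was run as an alternative, called 1 of 10 members, Lif, where it called 2.65% of genes (466 of 17564). The groups did not overlap for 1 of 10 members, Lif, where 16.8% of all genes had groups without overlap (8.96% with DTRScxLin higher and 7.85% with DTRScxLin lower). Of the 10 members, 6 were fitted higher and 4 lower in DTRScxLin, with a median log2 fold change of 0.06, beside 0.0082 for all tested genes.

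Lif, a ligand that signals through Lifr and gp130, had 278, 221 and 213 normalized counts across the WT tendons (replicates 1 to 3) and 480.2, 334 and 552 across the DTRScxLin tendons (replicates 1 to 3). All 3 DTRScxLin libraries were above all 3 WT libraries. The means were 237 ± 35.4 in WT and 455 ± 111 in DTRScxLin (SD, n = 3 each), a 1.92-fold difference (95% interval 1.34 to 2.74) or 0.94 on the log2 scale (SE 0.22). The edgeR quasi-likelihood test gave an unadjusted p of 0.00316 and an adjusted p of 0.293, whereas DESeq2 gave an adjusted p of 0.0063. Lif was called by edgeR when DTRScxLin replicate 2 was left out, with a log2 fold change of 1.12 and an adjusted p of 0.0278. That fit called 544 genes, where the fit on all 6 libraries called 0. DTRScxLin replicate 2 held 2.45% skeletal muscle markers, beside 0.342% and 0.647% in DTRScxLin replicates 1 and 3 and 2.02% to 2.79% in WT. Adjusted p-values of Lif ran from 0.0063 to 0.838 over 18 alternatives, all of which gave the same direction. Within libraries with Xist (1 WT, 2 DTRScxLin) Lif was 2.00-fold higher in DTRScxLin, and within those without (2 WT, 1 DTRScxLin) it was 1.96-fold higher. With the neutrophil marker level as a covariate, an alternative added after the data were seen, the log2 fold change of Lif was 0.92, with the skeletal muscle level 0.61 and with the keratinocyte level 1.10. The edgeR unadjusted p-values of these fits were 0.0105, 0.0520 and 0.00281 in that order.

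Il6, the founding ligand of the family, was counted little in every tendon. It had 75.1, 63.1 and 30.1 normalized counts across WT tendons and 173, 76.5 and 61.7 in the DTRScxLin libraries. DTRScxLin replicate 1 was 2.26 times the next library, and the other DTRScxLin values lay near or within the WT range. The means of 56.1 ± 23.3 and 104 ± 60.5 (SD, n = 3 each) gave a log2 fold change of 0.88 (SE 0.49, 95% interval -0.27 to 2.03), with an edgeR adjusted p of 0.524. Without DTRScxLin replicate 1 the log2 fold change was 0.29, and with the neutrophil level as a covariate it was 0.18.

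Il11, a ligand known for its action on fibroblasts, had 811, 355 and 374 normalized counts across WT tendons and 706, 153 and 359.7 in DTRScxLin. Replicate 1 was high in both groups, DTRScxLin replicate 2 was the lowest, and the groups overlapped. The means were 513 ± 258 and 406 ± 279 (SD, n = 3 each), and the log2 fold change was -0.34 (SE 0.65, 95% interval -1.99 to 1.31), with an edgeR adjusted p of 0.880. Its sign rested on single libraries, with 0.16 without WT replicate 1, 0.06 without DTRScxLin replicate 2 and -1.005 without DTRScxLin replicate 1. With the skeletal muscle level as a covariate it was -1.68, the lowest of the 18 alternatives. Per Il6 count, Il11 was counted 5.63 to 12.4 times in WT and 2.00 to 5.83 times in DTRScxLin libraries, and these ratios overlapped.

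**Figure D2:**
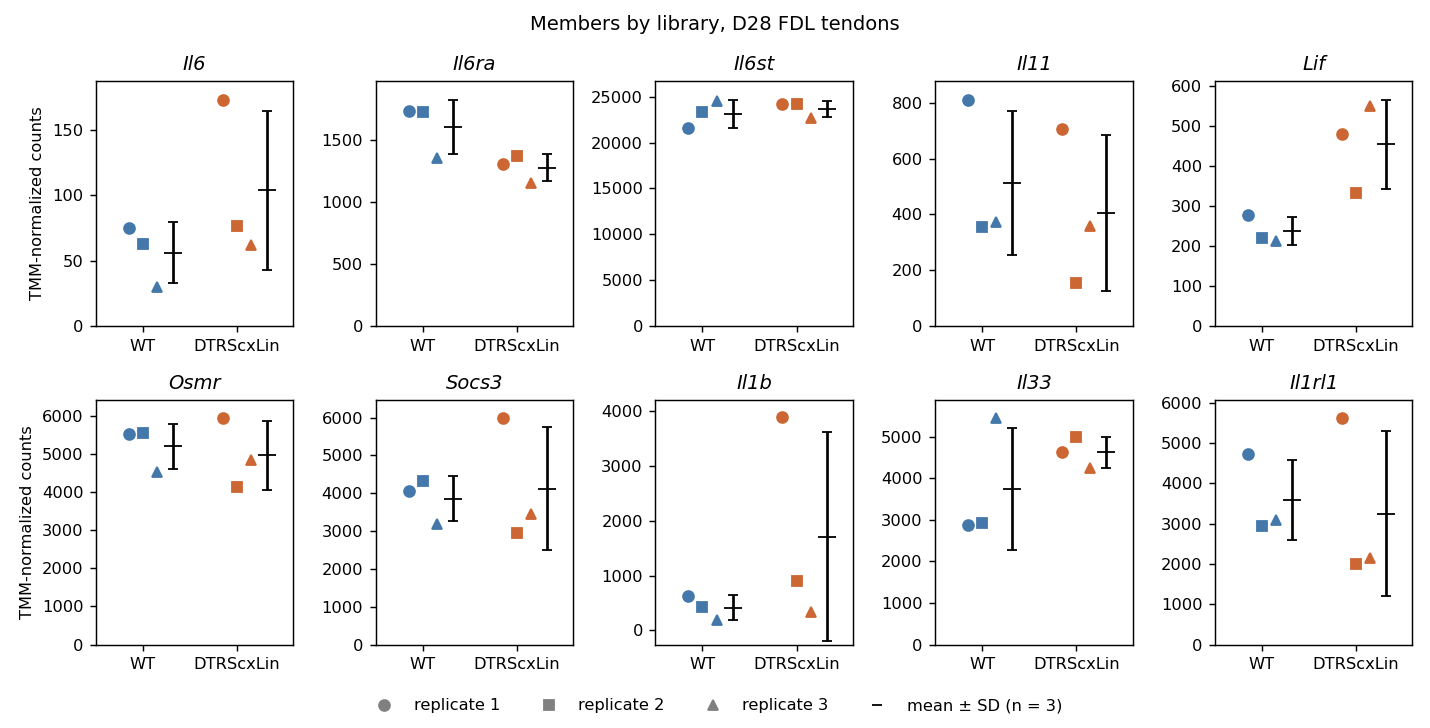
TMM-normalized counts of the 10 members in the 3 WT (blue) and 3 DTRScxLin (orange) libraries, with marker shape for the replicate and bars for mean ± SD; axes differ between panels. Only Lif has groups that do not overlap, and DTRScxLin replicate 1 is the highest library for Il6, Osmr, Socs3, Il1b and Il1rl1.

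The gp130 gene Il6st was the steadiest member. Its normalized counts were 21548, 23338 and 24555 in WT and 24240.2, 24156 and 22696 in DTRScxLin, with means of 23147 ± 1512 and 23697 ± 868 (SD, n = 3 each). The log2 fold change was 0.03 with a 95% interval of -0.21 to 0.28 (edgeR adjusted p = 0.930), and it was -0.0145 without WT replicate 1. Osmr, the oncostatin M receptor subunit, had 5517, 5568 and 4528 normalized counts across WT tendons and 5939, 4142 and 4843 in DTRScxLin. The highest and the lowest Osmr value were both in DTRScxLin, and the log2 fold change was -0.07 (SE 0.15, 95% interval -0.41 to 0.28, edgeR adjusted p = 0.898) and 0.05 without DTRScxLin replicate 2.

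Il6ra, which gives IL-6 its own receptor chain, was the one member fitted lower with an unadjusted p under 0.05. It had 1735, 1729.8 and 1355 normalized counts across WT tendons and 1304, 1369 and 1156 in DTRScxLin. WT replicates 1 and 2 stood above all other libraries, and the groups overlapped through WT replicate 3, which was just below DTRScxLin replicate 2. The means of 1607 ± 218 and 1276 ± 109 (SD, n = 3 each) gave a log2 fold change of -0.33 (SE 0.12, 95% interval -0.62 to -0.05), with an unadjusted p of 0.0287 and an adjusted p of 0.423 by edgeR and 0.298 by DESeq2. All 18 alternatives gave the same sign, from -0.44 to -0.24 on the log2 scale, and none called it. Per Il6st count, Il6ra ran from 0.0552 to 0.0805 in WT and from 0.0509 to 0.0567 in DTRScxLin, so these ratios overlapped as well.

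Socs3, the feedback inhibitor whose promoter holds the STAT motif shown above, had 4055, 4332 and 3186 normalized counts across WT tendons and 5979, 2944 and 3439 in DTRScxLin. DTRScxLin replicate 1 was the highest library and DTRScxLin replicate 2 the lowest. The means were 3858 ± 598 and 4121 ± 1628 (SD, n = 3 each), with a log2 fold change of 0.10 (SE 0.29, 95% interval -0.62 to 0.81, edgeR adjusted p = 0.930). The sign turned to -0.28 without DTRScxLin replicate 1 and to -0.03 without WT replicate 3.

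Il1b, the cytokine released after cleavage by caspase-1, had the widest spread of the 10 genes. It had 635, 428 and 193 normalized counts across WT tendons and 3890.4, 909 and 335 in DTRScxLin. DTRScxLin replicate 1 was 4.28 times the next library and 20.1 times the lowest, DTRScxLin replicate 2 was above all WT libraries, and DTRScxLin replicate 3 lay within the WT range. The means of 419 ± 221 and 1711 ± 1909 (SD, n = 3 each) gave a fitted 4.08-fold difference with a 95% interval of 0.562 to 29.7, or 2.03 on the log2 scale (SE 1.08, edgeR adjusted p = 0.537, DESeq2 adjusted p = 0.386). Without DTRScxLin replicate 1 the log2 fold change was 0.57. Within libraries with Xist Il1b was 1.46-fold and within those without 9.39-fold higher in DTRScxLin, the second resting on DTRScxLin replicate 1 alone.

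The summed neutrophil markers ordered the libraries as Il1b did, although not every marker did. The summed normalized counts of the 10 markers were 1982, 1737 and 911 in WT and 11893, 2209 and 1297 in DTRScxLin, the same order of libraries as for Il1b. In DTRScxLin replicate 1, S100a9 gave 5433 and S100a8 3512 of that sum. Csf3r and Cxcr2 were higher in WT replicate 1 (826 and 83.2) than in DTRScxLin replicate 2 (736 and 77.5), unlike Il1b. Of these markers, 6 were tested and all 6 were fitted higher in DTRScxLin (median log2 fold change 1.59). Ly6g, Camp, Ngp and Ltf had too few counts to test. Ly6g was at 0 in all 3 WT libraries and at only 4.12, 0.957 and 1.03 normalized counts in DTRScxLin, and no marker was at 0 in all 6. With the neutrophil level as a covariate, chosen after the data were seen, the log2 fold change of Il1b was 0.26. That level was far highest in DTRScxLin replicate 1, the library that also held the most Il1b. The part of neutrophils in the Il1b counts was not tested. Macrophage markers, in contrast, made up 0.317% to 0.394% of counts in WT and 0.349% to 0.376% in DTRScxLin, with 5 of 10 fitted higher and 5 lower. Per count of Il1rn, which codes for the receptor antagonist of IL-1, Il1b was counted 0.925, 0.932 and 1.16 times in WT and 1.96, 1.81 and 0.898 times in DTRScxLin, so DTRScxLin replicates 1 and 2 stood above the WT libraries and replicate 3 below them.

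**Figure D3:**
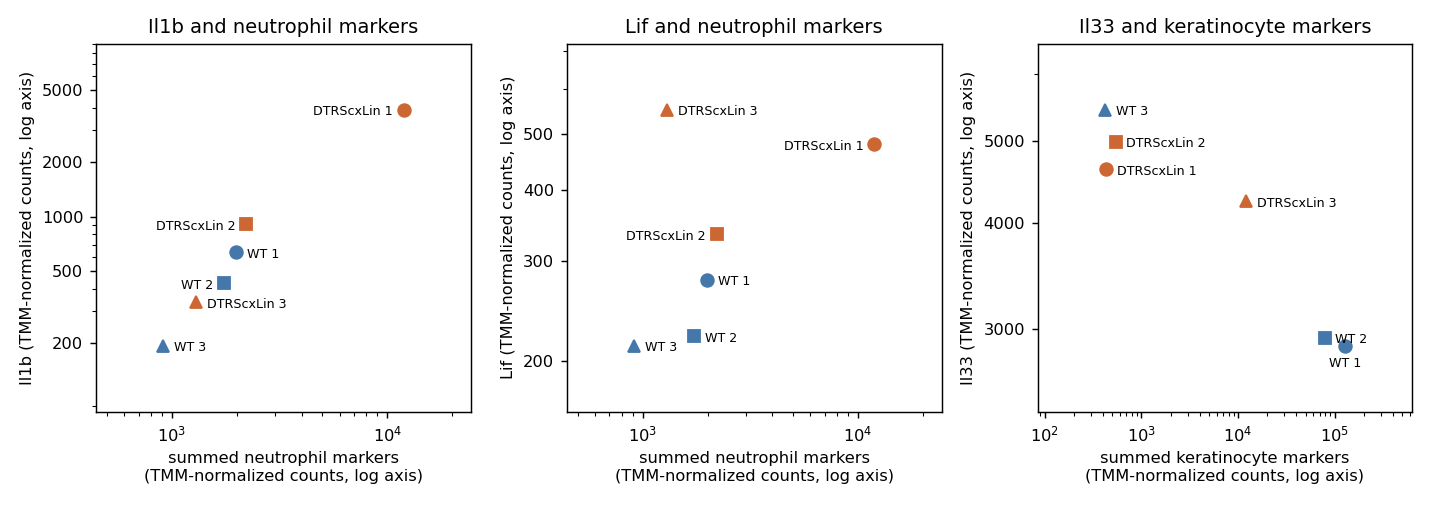
Normalized counts of Il1b and Lif against the summed neutrophil markers, and of Il33 against the summed keratinocyte markers, 1 point per library with WT in blue and DTRScxLin in orange, all on log axes. Il1b and the summed neutrophil markers order the 6 libraries alike, Lif is above the WT libraries in all 3 DTRScxLin libraries, and Il33 is lowest in WT replicates 1 and 2, which hold the most keratinocyte markers.

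Il33, an alarm signal held in the nucleus of fibroblasts and barrier cells, had 2872, 2934 and 5440.2 normalized counts across WT tendons and 4631, 4990.5 and 4246 in DTRScxLin. WT replicates 1 and 2 were low, WT replicate 3 was the highest of all, and the DTRScxLin libraries lay between. The means were 3749 ± 1465 and 4623 ± 372 (SD, n = 3 each), and the log2 fold change was 0.30 (SE 0.27, 95% interval -0.35 to 0.95, edgeR adjusted p = 0.692). Without WT replicate 3 it was 0.67. Keratinocyte markers made up 0.279% and 0.175% of counts in WT replicates 1 and 2, 0.000911% in WT replicate 3 and 0.000887%, 0.00116% and 0.0276% in the DTRScxLin libraries, and all 13 were fitted lower in DTRScxLin. With the keratinocyte level as a covariate, the log2 fold change of Il33 was 0.04. This level was highest in WT replicates 1 and 2, so it partly coincides with genotype. The part of keratinocytes in the Il33 difference was not tested.

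Il1rl1, the IL-33 receptor, had 4728, 2938 and 3077 normalized counts across WT tendons and 5607, 1996 and 2133 in DTRScxLin. Replicate 1 was the highest of both groups, and DTRScxLin replicates 2 and 3 were below all WT libraries. The means of 3581 ± 996 and 3246 ± 2046 (SD, n = 3 each) gave a log2 fold change of -0.14 (SE 0.50, 95% interval -1.43 to 1.15, edgeR adjusted p = 0.941). Without DTRScxLin replicate 1 it was -0.80, and it was above 0 without WT replicate 1 (0.11) or DTRScxLin replicate 2 (0.11) or 3 (0.09). Mast cells are known to carry this receptor, and 9 of 10 mast cell markers were fitted lower in DTRScxLin (median log2 fold change -0.996). Their summed normalized counts were 4229.7, 5593 and 5070.2 in WT and 3282, 4147 and 2146 in DTRScxLin, so DTRScxLin replicate 1 had the most Il1rl1 but fewer mast cell marker counts than any WT library. The marker Hdc gave 1921 of the counts in DTRScxLin replicate 1, beside 110 to 394 in each other library. The other mast cell markers were lowest in DTRScxLin replicate 1, except Gata2, which was lowest in DTRScxLin replicate 3. The part of mast cells in the Il1rl1 counts was not tested. Per Il33 count, Il1rl1 was counted 1.65, 1.00 and 0.566 times in WT and 1.21, 0.400 and 0.502 times in DTRScxLin.

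**Figure D4:**
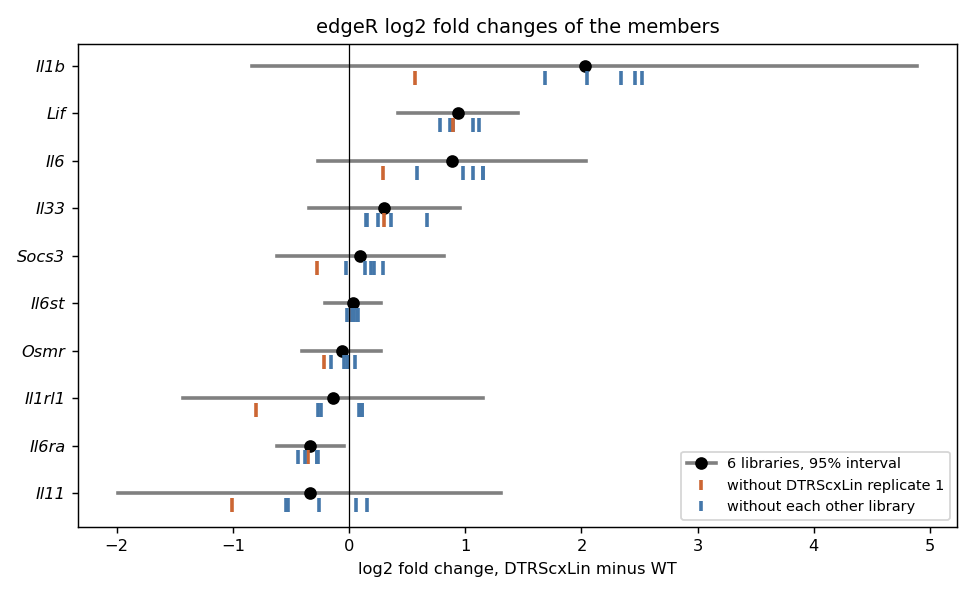
Fitted log2 fold change (DTRScxLin over WT) of each member with its 95% interval from edgeR. The intervals of Lif (0.42 to 1.45) and Il6ra (-0.62 to -0.05) lie on one side of 0, and the interval of Il1b is the widest.

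Across members, DTRScxLin replicate 1 was the highest library for 5 of 10 (Il6, Osmr, Socs3, Il1b and Il1rl1), while 22.9% of all tested genes had their highest value there. DTRScxLin replicate 2 was the lowest for 4 of 10 (Il11, Osmr, Socs3 and Il1rl1), and the share of all genes lowest there was not counted. The libraries of 1 group therefore lay at both ends for Osmr, Socs3 and Il1rl1.

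The other genes of these pathways were counted in 8 lists with 123 genes, of which 108 were tested, and edgeR called none of them. At an unadjusted p under 0.05, 8 were higher and 5 lower in DTRScxLin, beside 5.52% and 5.45% of all genes. DESeq2 called 3 higher (Cxcl1, Ptgs2 and Socs2) and 3 lower (Retnla, Ccl24 and Socs7) of the 108, beside 2.65% of all genes. The groups did not overlap for 11 of the 108 with DTRScxLin higher and 9 with DTRScxLin lower, beside 8.96% and 7.85% of all genes. Not all of these genes are named below. Il36a, Il36b, Il36g and Il36rn were not analysed here, and 11 further genes had too few counts to test, among them Il4, Il5, Il13, Csf2 and Csf3.

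Among the other IL-6 family ligands and receptors, 5 of 11 tested genes were fitted higher and 6 lower, and none had an unadjusted p under 0.05. Osm, the ligand of Osmr, had 60.9, 78.2 and 56.1 normalized counts across WT tendons and 187, 101 and 57.5 in DTRScxLin (log2 fold change 0.82, SE 0.43, edgeR adjusted p = 0.506), and the log2 fold change was 0.28 without DTRScxLin replicate 1. Cntfr, a receptor chain for ciliary neurotrophic factor, had 123, 191 and 134 in WT and 44.3, 117 and 91.5 in DTRScxLin, without overlap (log2 fold change -0.83, SE 0.38, edgeR adjusted p = 0.471). Of 18 JAK-STAT genes, 10 were fitted higher and 8 lower, and at an unadjusted p under 0.05 Socs2 was higher and Socs7, Stat5b and Gab1 were lower. Socs2 had 2711, 2381 and 2882 normalized counts across WT tendons and 3718, 3316 and 3556 in DTRScxLin (log2 fold change 0.41, SE 0.10), and Socs7 had 1570.3, 1720.4 and 1399 in WT and 1019, 1236 and 1085 in DTRScxLin (-0.49, SE 0.11). Both had groups without overlap, with adjusted p-values of 0.293 by edgeR for each and of 0.0416 and 0.0353 by DESeq2. The transcription factor gene Stat5b had means of 3081 ± 446 in WT and 2323 ± 185 in DTRScxLin, and the docking protein gene Gab1 had means of 2347 ± 176 and 1925 ± 13.2 (SD, n = 3 each). Both had groups without overlap, at log2 fold changes of -0.41 (SE 0.12) and -0.29 (SE 0.08), with edgeR adjusted p-values of 0.354 and 0.353. Of 15 STAT3 and acute phase response genes, 9 were fitted higher and 6 lower (median log2 fold change 0.06). The ends of that list were both acute phase proteins, Saa3 with 549, 698 and 283 normalized counts across WT tendons and 2358, 980.5 and 808 in DTRScxLin (1.44, SE 0.57, edgeR adjusted p = 0.462) and Lcn2 with 366, 129 and 170.5 across WT tendons and 191, 92.8 and 54.5 in DTRScxLin (-0.98, SE 0.57, edgeR adjusted p = 0.548). Without DTRScxLin replicate 1 these were 0.80 for Saa3 and -1.59 for Lcn2, and Lcn2 was -0.41 without WT replicate 1 and -1.75 with the neutrophil level as a covariate. Timp1, an inhibitor of matrix metalloproteinases, was the one gene of that list with an unadjusted p under 0.05, at 0.63 (SE 0.22, edgeR adjusted p = 0.417).

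Among the other IL-1 family genes, 6 of 11 tested were fitted higher and 5 lower. Il1rn had 687, 459 and 167 normalized counts across WT tendons and 1983, 503 and 373 in DTRScxLin, and its log2 fold change of 1.12 (SE 0.89, edgeR adjusted p = 0.666) was -0.00311 without DTRScxLin replicate 1. Among genes of that list that averaged 50 or more normalized counts, Sigirr, a receptor that dampens IL-1 signals, was fitted lowest at -0.37 (SE 0.22), while Il1a, the other IL-1 ligand, averaged fewer and was at -0.48 (SE 0.97). In addition, Il1rl2, the IL-36 receptor, was fitted 0.52 higher (SE 0.14, edgeR adjusted p = 0.329). Of 9 inflammasome genes, 7 were fitted higher and 2 lower. They ran from Pycard, the adaptor ASC, at -0.26 to the sensor Nlrp3 at 0.93, with 204, 309.8 and 93.5 normalized counts across WT tendons and 627, 269 and 265 in DTRScxLin, and Nlrp3 was at 0.39 without DTRScxLin replicate 1. The 15 MyD88 and NF-kB transducers spanned a narrow range, between -0.20 for Traf6 and 0.15 for Irak3, and none had an unadjusted p under 0.05.

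Of 20 tested IL-1 and NF-kB response genes, 18 were fitted higher and 2 lower in DTRScxLin, beside 9017 higher and 8479 lower of all 17496 tested genes. The median log2 fold change of the list was 0.17, and it was 0.03 without DTRScxLin replicate 1, the library with the most neutrophil marker counts. Of the 20, 5 had an unadjusted p under 0.05, all higher (Cxcl2, Ptgs2, Cxcl1, Ccl20 and Tnf, named after their values were seen), beside 5.52% of all tested genes. Sod2 was the lowest at -0.27. Cxcl1, a neutrophil attractant, had 100.5, 171 and 117 normalized counts across WT tendons and 328, 584 and 237 in DTRScxLin (1.56, SE 0.37, adjusted p = 0.301 by edgeR and 0.000967 by DESeq2). Ptgs2, the inducible prostaglandin synthase COX-2, had 312, 156 and 114 in WT and 1020.3, 516 and 474 in DTRScxLin (1.79, SE 0.49, adjusted p = 0.354 by edgeR and 0.000415 by DESeq2). Both had groups without overlap, as did 8.96% of all tested genes with DTRScxLin higher. Cxcl2, another neutrophil attractant, had 89.3, 86.6 and 44.7 in WT and 1522, 195 and 146 in DTRScxLin (3.07, SE 1.14, edgeR adjusted p = 0.452), and DESeq2 gave it no adjusted p. Its log2 fold change was 1.21 without DTRScxLin replicate 1 and 1.09 with the neutrophil level as a covariate.

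Of 9 tested IL-33 and type 2 response genes, 5 were fitted higher and 4 lower, with a median of 0.08 that was -0.459 without DTRScxLin replicate 1. Retnla, which codes for RELM-alpha of alternatively activated macrophages, had 551, 393 and 394 normalized counts across WT tendons and 26.8, 63.1 and 9.25 in DTRScxLin (-3.74, SE 0.66, adjusted p = 0.274 by edgeR and 4.87e-05 by DESeq2). Ccl24, an eosinophil attractant, had 505.5, 389.8 and 612 in WT and 191, 267 and 234 in DTRScxLin (-1.12, SE 0.21, adjusted p = 0.272 by edgeR and 0.000176 by DESeq2). Both had every DTRScxLin library below every WT library, while Chil3, another gene of such macrophages, was fitted highest among abundant genes of the list at 0.57 (SE 0.52, edgeR adjusted p = 0.698). Chil3 had 115, 36.7 and 28.1 normalized counts across WT tendons and 94.8, 85.1 and 86.3 in DTRScxLin, and was at 1.45 without WT replicate 1 and 0.23 without WT replicate 3. Adipocyte markers, 7 of 7, were fitted lower in DTRScxLin with a median log2 fold change of -2.38. Their summed normalized counts (5151 to 9415 in WT and 4003 to 6656 in DTRScxLin) were mostly Fabp4, at -0.27, while the others were fitted between -3.79 and -2.10. None was at 0 in all libraries, and their part in Retnla, which fat tissue also expresses, was not tested.

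**Figure D5:**
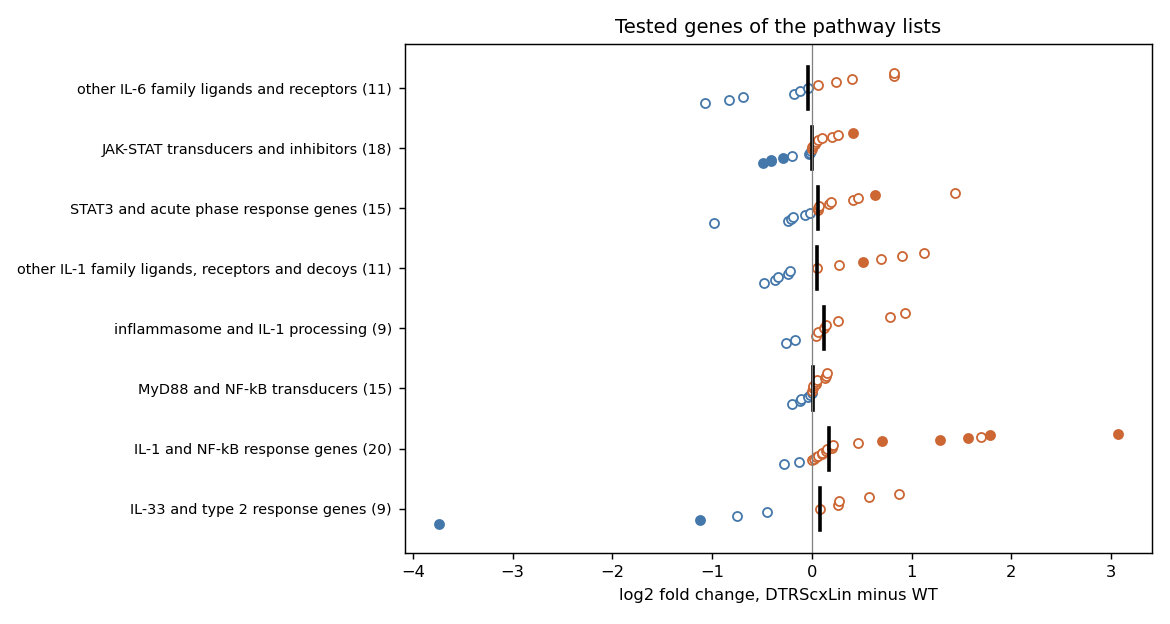
Fitted log2 fold change (DTRScxLin over WT) of each tested gene in the 8 pathway lists, with filled points for an unadjusted p under 0.05 and a line for each list's median. The IL-1 and NF-kB response list has 18 of 20 genes above 0, beside 9017 of all 17496 tested genes, and Retnla at -3.74 is the lowest point.

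Likeness of pattern was measured as the root mean square difference of log2 CPM (counts scaled to library size), each gene centred on its own mean over the 6 libraries. The genes nearest to Il1b were Hdc (0.162), the histamine-forming enzyme, Cxcr2 (0.264), a neutrophil chemokine receptor that is also on the neutrophil list, and Trem1 (0.267), a myeloid receptor. Hdc was the one mast cell marker fitted higher, with 256, 203 and 110.2 normalized counts across WT tendons and 1921, 394 and 169.6 in DTRScxLin (log2 fold change 2.12, and 0.57 without DTRScxLin replicate 1). The genes nearest to Il6 were Pcdhgc5 (0.219), Trpm2 (0.222) and Adam8 (0.231), and those nearest to Il33 were Oit3 (0.0758), Mthfd1l (0.107) and Gm28818 (0.110). These are descriptions over 6 libraries that share their depth and marker differences.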

How the data were processed

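Reads were demultiplexed, trimmed with FastP and assigned to genes with featureCounts by the authors, and the deposited counts are whole numbers that were not normalized. The aligner, genome build, annotation and strand setting are not given in the sources used here, so overlapping genes are uncertain. A second deposited table holds normalized counts (a signal made by the authors), equal to the counts divided by a size factor per library (0.973 to 1.06); the submitters' processing notes name DESeq2 1.22.1. From this table, 100% of values above 0 gave whole reads within 0.001 of a whole number. These reads equalled the deposited counts in 100% of values, so edgeR on them repeated the main fit and called 0 genes. The labels name a TruSeq Stranded and a SMARTER kit.

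Differences were tested with edgeR 4.0.16 in R 4.3.3 (filterByExpr, TMM, robust quasi-likelihood fit on genotype), with Benjamini-Hochberg adjustment over 17496 genes and a threshold of 0.05. Normalized counts in the text are TMM-normalized at the mean library size. RPKM used GENCODE vM21 exon lengths matched by symbol. DESeq2 1.42.0 and limma 3.58.1 were alternatives, besides another scaling, other filters, a replicate block, covariates and leaving out each library. Members, lists and markers were chosen with earlier results of these data known. Besides members, the genes with the highest and lowest log2 fold change of each list (mean of at least 50 normalized counts), any called gene, and the 3 genes nearest in pattern to Il6, Il1b and Il33 were named; genes with an unadjusted p under 0.05 were added after their values were seen. Replicates differed by 36.6 to 190 chi-square units per degree of freedom, so each counted as 1 sample; p-values measure the spread between these tendons. In simulated counts for this comparison (17496 genes), 52 of 99 genes changed by 1 on the log2 scale and 80 of 96 changed by 2 were recovered. Of 16951 unchanged genes in those counts, 12 were called. In the measured counts edgeR called 0 of 17496 genes, and recovery in the measured libraries was not tested.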

Additional observations from a re-analysis of the deposited data

How the results depend on the processing

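Under the DESeq2 Wald test 466 genes and 1 member (Lif) were called, and without a filter on low counts 83 genes and 0 members; the cause was not tested. Leaving out 1 library gave 0 to 544 called genes and 0 to 1 called members, the upper values only without DTRScxLin replicate 2. The other scaling, filter and limma alternatives, and the covariates, called 0 genes. The fits on recovered whole reads and with Xist or neutrophil level as covariate were chosen after seeing the data.

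Same-numbered libraries did not deviate together (correlations of -0.188, -0.149 and -0.684), so the numbers were not taken to pair them; the replicate block called 1 gene and 0 members, with a log2 fold change of 0.92 for Lif.

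The log2 fold changes of these genes changed sign under some alternatives; the cause was not tested. With the keratinocyte level as covariate the log2 fold change was -0.0284 for Il6st, 0.0214 for Osmr and -0.0928 for Mthfd1l. With the skeletal muscle level it was -0.42 for Socs3 and -0.13 for Trpm2. With the neutrophil level it was -0.29 for Socs3, -0.12 for Il1rn, -0.0409 for Trpm2 and -0.0777 for Cxcr2, and with Xist 0.00848 for Il1rl1. Cxcr2 is itself on the neutrophil marker list, so that covariate takes out part of its own change. Leaving out 1 library gave ranges of -0.0145 to 0.0762 for Il6st, -1.005 to 0.16 for Il11, -0.22 to 0.0528 for Osmr, -0.28 to 0.29 for Socs3, -0.80 to 0.11 for Il1rl1, -0.00311 to 1.61 for Il1rn, -0.000938 to 0.84 for Trpm2 and -0.0256 to 0.53 for Mthfd1l. Il6, Il6ra, Lif, Il1b and Il33 kept their sign in all 18 alternatives, among which the fit on recovered whole reads repeated the main fit.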
